A study of Mus musculus with 19 samples.

Results

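The immunoglobulin constant region genes encode the stems of antibodies, and which of them a B cell transcribes sets the class of its heavy chain and the type of its light chain. The genes described here are the heavy chain genes Ighm, Ighd, Igha, Ighg1, Ighg2b, Ighg2c and Ighg3 and the light chain genes Igkc, Iglc1 and Iglc2. They were taken by symbol from the deposited expression table, and all 10 were found among its 21086 genes. They were measured in 19 lymphomas of mice that carry the Eμ-Myc transgene, in which the heavy chain enhancer drives Myc expression in the B lineage, so every group shares that transgene. Bulk polyadenylated RNA was sequenced from flash-frozen tumours, 1 library per tumour. The labels give 2 genotypes, Bptf+/+; Em-Myc (wild type) and Bptf+/{delta}; Em-Myc (heterozygous, 1 allele of the chromatin remodelling subunit Bptf deleted), and 2 classes of onset. There were 6 wild-type early tumours with onset at 9 to 17 weeks, 5 wild-type late tumours at 28 to 76 weeks, 4 heterozygous early tumours at 8 to 13 weeks and 4 heterozygous late tumours at 30 to 66 weeks. The classes did not overlap in age at onset, so an effect of class cannot be told apart from one of age. The sources used here do not give the exons that the deleted allele lacks. Tumours are numbered within a group in accession order, and the numbers pair nothing.

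As background, a B cell first joins V, D and J segments of the heavy chain locus and transcribes them with the μ constant gene Ighm, and alternative RNA processing of the same long transcript gives the δ chain from Ighd. Class switch recombination later deletes the DNA between 2 switch regions, so that the same variable region is joined to a γ, ε or α constant gene, and a switched allele no longer holds Ighm and Ighd. Light chains come from the κ locus, with its single constant gene Igkc, or from the λ locus with several constant genes, and a mature B cell normally keeps 1 functional light chain. In mice κ is by far the commoner type. Switch regions also give germline transcripts that run through a constant gene without switching, and counts per gene do not separate these, or the membrane and secreted forms, from mRNA of a complete chain. Eμ-Myc lymphomas are known to arise from pre-B cells and from IgM-positive B cells.

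Depth was 8297856 to 12497732 recovered reads per library. Bptf itself, the targeted gene, was at 1664.7 to 2585.7 normalised reads in the 11 wild-type tumours and at 407.6 to 1573.3 in the 8 heterozygous ones, so the genotypes did not overlap. Some libraries stood apart. Heterozygous late tumour 4 had 18.5% of its reads in the 10 constant region genes, and wild-type late tumour 2 had 0.928%, against 0.199 to 0.557% in 15 other tumours. The remaining pair were at the low end, with 0.0618% in wild-type early tumour 5 and 0.008% in heterozygous early tumour 2. In heterozygous early tumour 2 the cartilage gene Col2a1 took the most reads, 4.36%, and the summed level of all 10 B cell markers was 659, against 11351 to 42257 in the other tumours. In wild-type early tumour 6 the salivary gland gene Bpifa2 took the most reads, 5.07%. In bulk tissue, fewer B cells in a tumour and less of an mRNA per B cell cannot be told apart.

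All values below are normalised read counts as deposited, which are whole reads divided by 1 factor per library. Where genes are compared with each other the count was divided by the length of the merged exons. On GRCm38, with GENCODE M21 gene models, the heavy chain genes lie on the minus strand of chromosome 12 in the order of transcription Ighm (113418558 to 113422730), Ighd (113406604 to 113416324), Ighg3 (113356224 to 113361232), Ighg1 (113325240 to 113330523), Ighg2b (113302965 to 113307933), Ighg2c (113285325 to 113288932) and Igha (113254830 to 113260236). Igkc lies on the plus strand of chromosome 6 (70726435 to 70726966). Iglc1 (19061618 to 19062071) and Iglc2 (19198396 to 19200351) lie on the minus strand of chromosome 16.

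The 4 γ genes are close relatives, and their hinge exons, which encode the flexible link between the arms and the stem of IgG, are shown because they differ between the subclasses in length as well as in sequence. The hinge exons are 48 bases long in Ighg3 (chr12:113360529-113360576), 39 in Ighg1 (chr12:113329844-113329882), 66 in Ighg2b (chr12:113307261-113307326) and 63 in Ighg2c (chr12:113288263-113288325), all read 5′ to 3′ on the minus strand from the GENCODE M21 transcripts, in lower case throughout.
Ighg3: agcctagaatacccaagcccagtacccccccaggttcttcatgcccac
Ighg1: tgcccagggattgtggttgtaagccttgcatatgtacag
Ighg2b: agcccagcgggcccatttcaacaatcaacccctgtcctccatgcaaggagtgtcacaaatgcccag
Ighg2c: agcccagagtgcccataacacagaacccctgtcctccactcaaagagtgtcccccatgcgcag
Over the first 4 coding exons Ighg2b and Ighg2c were 85.5% identical, and no other pair of γ genes was more than 76.0% identical. Of all windows of 50 bases in the annotated transcripts, Ighg2b and Ighg2c shared 70, which is 2.66% of those of Ighg2b and 5.49% of those of Ighg2c. Some reads of either gene could thus be counted for the other. The read length is not given, so how many cannot be said. Ighm shared no such window with Ighd or with Igha.

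The λ genes needed a closer look, because Iglc2 has a near copy, Iglc3, that is not among the 10 genes. The first 120 coding bases of Iglc1 (chr16:19061952-19062071), Iglc2 (chr16:19198733-19198852) and Iglc3 (chr16:19065562-19065681) are given 5′ to 3′ on the minus strand, from the same transcripts, with capitals at the 30 positions where the 3 genes are not all the same.
Iglc1: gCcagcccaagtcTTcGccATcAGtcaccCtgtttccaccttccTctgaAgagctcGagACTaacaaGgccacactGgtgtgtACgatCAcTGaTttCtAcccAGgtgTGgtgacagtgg
Iglc2: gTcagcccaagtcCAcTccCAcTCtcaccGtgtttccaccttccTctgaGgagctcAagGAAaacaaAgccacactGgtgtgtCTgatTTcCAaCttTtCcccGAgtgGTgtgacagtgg
Iglc3: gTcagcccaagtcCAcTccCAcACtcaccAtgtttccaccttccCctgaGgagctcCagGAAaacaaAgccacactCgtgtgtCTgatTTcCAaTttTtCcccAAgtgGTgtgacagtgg
In this stretch Iglc2 and Iglc3 differ at 7 positions, whereas Iglc1 differs from Iglc2 at 28 and from Iglc3 at 27. Over the whole coding part Iglc2 and Iglc3 were 96.5% identical, and Iglc1 was 73.6% identical to Iglc2 and 74.5% to Iglc3. Iglc2 shared 43 windows of 50 bases with Iglc3 (7.65% of those of Iglc2 and 10.7% of those of Iglc3), and Iglc1 shared none with either. The split of reads between Iglc2 and Iglc3 is therefore uncertain, and λ use is given below with and without Iglc3.

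Ranked by the median level per kilobase over the 19 tumours, Ighm came first at 10166 and Igkc second at 8778, and Ighm was above Igkc in 10 tumours, so the order of these 2 was not kept from tumour to tumour. Igkc was above the next gene, Iglc1 (median 1103), in all 19. Ighd followed at 215, Igha at 84.7, Ighg2c at 58.4, Ighg2b at 44.6, Iglc2 at 37.5, Ighg3 at 6.67 and Ighg1 at 3.43. Among these lower genes Ighd was above Igha in 11 tumours, Igha above Ighg2c in 9 and Ighg2b above Iglc2 in 11, whereas Ighg2c was above Ighg2b in 16 and Iglc2 above Ighg3 in 16. The spread over tumours was wide for every one of them. Per kilobase, Igha ranged from 3.26 to 281937 and Ighg2c from 5.25 to 554146. The order of Ighg2c and Ighg2b depended on length, with annotated exons of 1326 and 2678 bases. Without division by length, the median count was 77.5 for Ighg2c and 119 for Ighg2b.

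**Figure D1:**
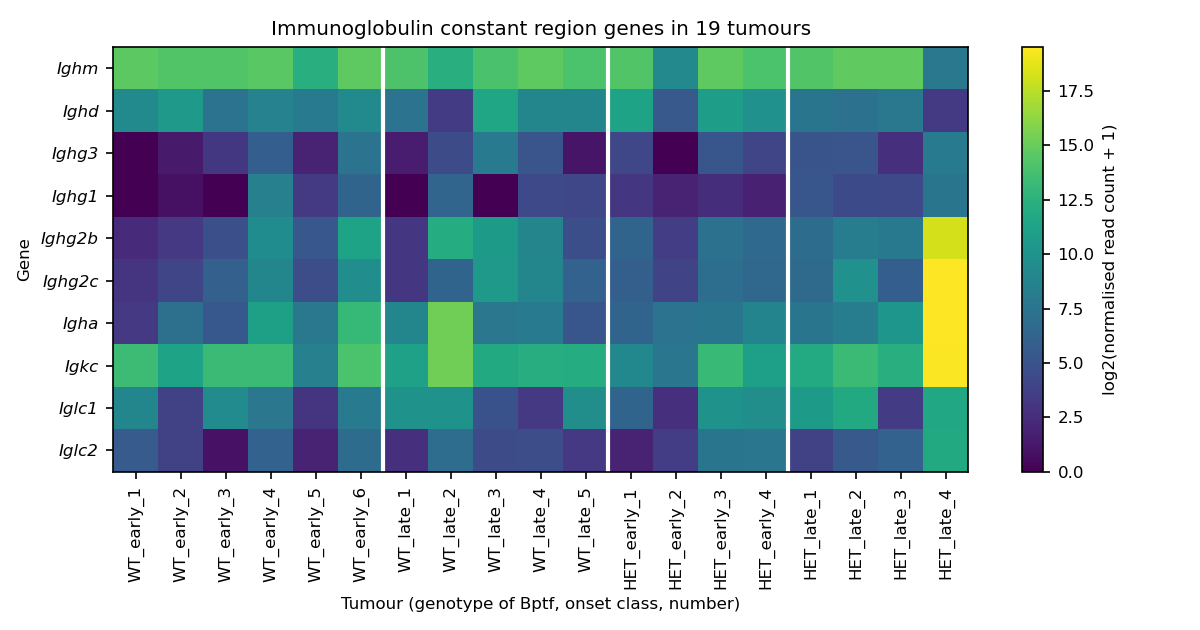
Level of the 10 immunoglobulin constant region genes (rows) in the 19 tumours (columns, by group), as log2 of the normalised read count plus 1. Ighm and Igkc are high in most columns, and heterozygous late tumour 4 stands out by high Igha, Ighg2b, Ighg2c and Igkc beside low Ighm and Ighd.

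Ighm, which encodes the heavy chain of IgM, was the leading heavy chain gene per kilobase in 17 of the 19 tumours. In the wild-type early tumours it was at 4729 at the lowest (tumour 5), 21276 at the median and 25582 at the highest (tumour 6). The wild-type late tumours had 16809, 4949, 15269, 25585 and 16024 normalised reads. The heterozygous early tumours had 18683, 579.6, 26743 and 16676, and the heterozygous late tumours 19290.2, 27721, 28311 and 219.8. Most tumours thus lay in a narrow band, and 1 or 2 low tumours made the range of each group wide. The groups overlapped in every pairing. The low tumours were not alike in other respects. Heterozygous late tumour 4 and wild-type late tumour 2 had high levels of switched genes, heterozygous early tumour 2 had low B cell markers, and wild-type early tumour 5 had high surrogate light chain mRNA, as given below.

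Ighd, which encodes the heavy chain of IgD, the second receptor class of naive mature B cells, was far lower than Ighm. Its counts in the wild-type early tumours had a lowest value of 170.0 (tumour 3), a median of 513 and a highest value of 1446 (tumour 2). The late wild-type tumours had 169, 10.2, 2795, 486 and 500.2. Early heterozygous tumours had 2538, 43.9, 1885 and 954, and the heterozygous late tumours 192, 151, 227 and 9.03. Heterozygous early tumours were thus high apart from tumour 2, and all 4 heterozygous late tumours were at the low end, but tumour 2 kept the groups overlapping. Because both genes are read from 1 transcript, the ratio of Ighd to Ighm per kilobase was also computed. It had a median of 2.47% and exceeded 5% in 7 tumours and 10% in 2, wild-type late tumour 3 (18.2%) and heterozygous early tumour 1 (13.5%). The ratio was 13.5% in heterozygous early tumour 1 and 5.68 to 7.51% in the others of that group, against at most 4.08% in the heterozygous late ones, so these 2 groups did not overlap in it, while the wild-type groups did (0.864 to 7.49% early and 0.20 to 18.2% late). The highest heterozygous late ratio, in tumour 4, rested on 6 Ighd reads and 146 Ighm reads. That of heterozygous early tumour 2 rested on 33 Ighd reads. For single genes, 7.83% of 19927 did not overlap between these 2 heterozygous groups. No test was made of this ratio.

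Igha, which encodes the heavy chain of IgA, the class of mucosal antibody, was high in single tumours of 3 of the 4 groups. The wild-type early tumours had a lowest count of 8.70 (tumour 1), a median of 186 and a highest count of 8668 (tumour 6). Wild-type late tumours had 488, 40898, 212, 284 and 36.5. Heterozygous early tumours had 78.2, 170.1, 195 and 446, and the heterozygous late tumours 186, 291, 1221 and 752208. The 4 highest counts thus came from wild-type early tumours 4 (2133) and 6, wild-type late tumour 2 and heterozygous late tumour 4, and no other tumour exceeded 1221. In heterozygous late tumour 4 Igha alone held 5.55% of all recovered reads (95% exact binomial interval 5.54 to 5.57%, counting error only), more than any other gene of that library.

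Ighg2b and Ighg2c, which encode the heavy chains of 2 IgG subclasses, were high in the same library. Ighg2b in the wild-type early tumours ranged from 4.35 (tumour 1) through a median of 32.9 to 2604 (tumour 6). It was 7.38, 4309, 1618, 482 and 24.7 in the wild-type late tumours, 76.4, 10.6, 166 and 102 in the heterozygous early ones and 119, 315, 230.5 and 316767 in the heterozygous late ones. Apart from heterozygous late tumour 4, the highest counts came from 3 wild-type tumours, and no other tumour exceeded 734.8. Ighg2c in the wild-type early tumours ranged from 6.96 (tumour 1) through a median of 44.0 to 772 (tumour 6). It was 7.38, 77.5, 1457, 505 and 68.3 in the wild-type late tumours, 57.7, 14.6, 129 and 92.6 in the heterozygous early ones and 107, 961, 56.6 and 734797 in the heterozygous late ones. In wild-type late tumour 2 Ighg2b was high without Ighg2c, and in wild-type late tumour 3 their counts were alike.

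Ighg1 and Ighg3, which encode the remaining IgG subclasses measured, were near the limit of detection in many libraries. With 3 reads taken as the floor, which is 2.24 to 4.52 normalised reads depending on the library, Ighg1 had at most 3 reads in 7 tumours and none in 4, and Ighg3 had at most 3 reads in 6 and none in 2. Ighg1 in the wild-type early tumours ranged from 0 (tumour 1) through a median of 4.88 to 355 (tumour 4). It was 0, 79.5, 0, 19.3 and 16.5 in the wild-type late tumours, 7.45, 2.66, 4.90 and 2.53 in the heterozygous early ones and 36.6, 20.2, 18.9 and 194 in the heterozygous late ones. The 2 heterozygous groups therefore did not overlap for Ighg1, although all 4 heterozygous early values rest on a handful of reads. Ighg3 in the wild-type early tumours ranged from 0 (tumour 1) through a median of 5.27 to 169.9 (tumour 6). It was 1.84, 22.4, 249, 33.8 and 1.18 in the wild-type late tumours, 16.8, 0, 35.9 and 16.0 in the heterozygous early ones and 32.2, 34.6, 5.51 and 260.5 in the heterozygous late ones. Even its highest counts were small beside those of Ighg2b and Ighg2c in the same tumours.

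The make-up of the heavy chain mRNA of each tumour was then described as the share of each gene in the summed level per kilobase of the 7 heavy chain genes. Ighm held 87.0 to 98.4% in 5 of the 6 wild-type early tumours and 72.2% in tumour 6. It held 96.9, 70.7, 93.5 and 96.1% in wild-type late tumours 1, 3, 4 and 5, 74.9 to 92.0% in the heterozygous early tumours and 93.3 to 96.9% in heterozygous late tumours 1 to 3. The exceptions were a pair of late tumours, 1 of each genotype. In wild-type late tumour 2, Igha held 77.9%, Ighm 13.3% and Ighg2b 8.18%. In heterozygous late tumour 4, Ighg2c held 58.0%, Igha 29.5% and Ighg2b 12.4%, and Ighm held 0.01%.

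The lead of Ighg2c in heterozygous late tumour 4 depended on how length was counted. The annotated exons of Ighg2c sum to 1326 bases against 2668 for Igha and 2678 for Ighg2b. Without division by length, Ighg2c held 40.7% and Igha 41.7% of its heavy chain reads, so only the joint lead of these 2 genes was independent of that choice. Counts per gene do not show whether the 2 mRNAs came from the same cells.

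The γ and α genes together, called the switched share here, had a median of 3.79% of heavy chain mRNA. The switched share in the wild-type early tumours was 0.0746% at the lowest, 2.56% at the median and 26.1% at the highest. The wild-type late tumours had 2.09, 86.6, 16.4, 4.74 and 0.918%. The heterozygous early tumours had 0.977, 19.5, 1.61 and 2.93%, and the heterozygous late tumours 2.11, 6.18, 3.79 and 99.99%. The share exceeded 10% in 6 tumours and 50% in 2, and the groups overlapped. Those 2, heterozygous late tumour 4 and wild-type late tumour 2, had the latest onset, at 66 and 76 weeks. Wild-type late tumour 3 (16.4%) came next at 58 weeks, and the other late tumours, at 28 to 44 weeks, had 0.918 to 6.18%. Early tumours reached 26.1%, and a relation of the share to age was not tested. Among the other tumours above 10% the leading switched gene was not the same. It was Igha in wild-type early tumour 6 (17.3% of heavy chain mRNA) and heterozygous early tumour 2 (15.5%), and Ighg2c in wild-type late tumour 3 (9.60%, with Ighg2b at 5.28% and Ighd at 12.9%). Over all tumours Igha led the switched genes per kilobase in 9 and Ighg2c in 10. This near-even split depended on length and did not hold without division by it. Ighg2b (1618) was then above Ighg2c (1457) in wild-type late tumour 3. Igha was then above Ighg2c in wild-type early tumour 1 (8.70 against 6.96) and heterozygous early tumours 1 (78.2 against 57.7) and 3 (195 against 129). The same held in heterozygous late tumours 1 (186 against 107) and 4 (752208 against 734797). Per kilobase, Ighg2c led the switched genes in all of these tumours.

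**Figure D2:**
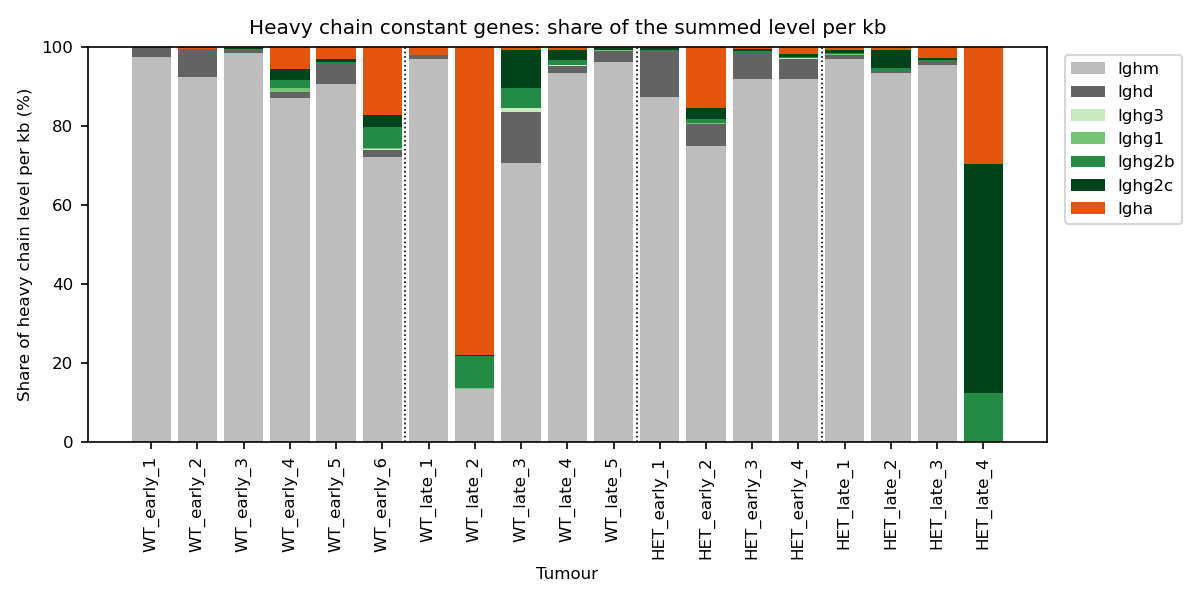
Share of each of the 7 heavy chain constant region genes in their summed level per kilobase (y axis, percent) in each of the 19 tumours (x axis, by group). Ighm fills most of 17 bars, Igha leads with 77.9% in wild-type late tumour 2, and Ighg2c with 58.0% and Igha with 29.5% fill most of heterozygous late tumour 4.

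Genes tied to antibody secretion were read in the same tumours. Jchain, which links IgA and IgM into polymers, had 57297 normalised reads in heterozygous late tumour 4 against a median of 267, followed by 5814 in wild-type late tumour 2, 5558 in heterozygous late tumour 1 and 3362 in wild-type early tumour 6. Xbp1, the transcription factor of the secretory programme, had 5658 in heterozygous late tumour 4, 2389 in heterozygous early tumour 2 and 2071 in wild-type late tumour 2, against a median of 775. Summed over the 10 plasma cell markers in the table, of 12 listed, heterozygous late tumour 4 had 85172, wild-type late tumour 2 had 17812 and the others 3748 to 13306. None of these markers was at 0 in heterozygous late tumour 4 or wild-type late tumour 2. In wild-type early tumours 2 and 3 and wild-type late tumours 4 and 5, 1 marker was at 0. The part of plasma cells in the switched mRNA was not tested.

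In wild-type early tumour 6 the 7 salivary gland markers in the table, of 8 listed, summed to 750814, against 6004 in wild-type late tumour 1 and 35.7 to 867 in the other tumours, beside its high Igha. Pigr, the epithelial receptor that carries polymeric IgA across the duct wall, had 348 normalised reads there and at most 5.76 elsewhere. In heterozygous early tumour 2 the 5 cartilage markers summed to 772164, against 10545 in wild-type early tumour 5 and 11.8 to 241 in the rest, beside a switched share of 19.5% computed from few reads. The part of either tissue in these shares was not tested.

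Igkc, the κ constant gene, was the leading light chain gene in all 19 tumours. Its counts in the wild-type early tumours were 361 at the lowest (tumour 5), 10154 at the median and 16039.7 at the highest (tumour 6). The late wild-type tumours had 2252, 40303, 3675, 4670.0 and 4392. Early heterozygous tumours had 564, 201, 9195 and 2095, and the heterozygous late tumours 3955, 10135, 5047 and 689409. The heterozygous late tumours were above 3 of the 4 heterozygous early ones, and tumour 3 of the early group kept these groups overlapping. In the wild type, tumour 2 alone of the late group exceeded the highest early tumour.

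Iglc1, the constant gene of λ1 light chains, was high in some tumours of each group and nearly missing in others. The wild-type early tumours had a lowest count of 7.12 (tumour 5), a median of 249 and a highest count of 692 (tumour 3). Wild-type late tumours had 1070.5, 1014, 28.9, 8.46 and 788. Heterozygous early tumours had 78.2, 5.32, 1025 and 807, and the heterozygous late tumours 1552, 3687, 9.44 and 3105. High and low counts sat side by side within each group, so the groups overlapped throughout.

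Iglc2, the constant gene of λ2 light chains, was mostly low. The wild-type early tumours had a lowest count of 0.983 (tumour 3), a median of 30.3 and a highest count of 116 (tumour 6). The wild-type late tumours had 5.53, 122, 21.7, 23.0 and 8.24. The heterozygous early tumours had 2.79, 10.6, 187 and 202, and the heterozygous late tumours 13.1, 43.2, 69.2 and 3753. Only heterozygous late tumour 4 exceeded 202, and Iglc2 had at most 3 reads in 3 tumours.

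Light chain use was described as the share of Iglc1 and Iglc2 in the summed level per kilobase of the 3 light chain genes. This λ share had a median of 5.59%, exceeded 10% in 7 tumours and exceeded 50% in none. In the wild-type early tumours it was 1.06% at the lowest, 2.92% at the median and 7.47% at the highest. The late wild-type tumours had 35.9, 3.11, 1.41, 0.636 and 17.5%. Early heterozygous tumours had 14.3, 7.16, 12.9 and 34.9%, and the heterozygous late tumours 31.6, 30.1, 1.39 and 0.991%. The wild-type early tumours were all low, and each late group held both low and high tumours. Of the heterozygous early tumours, 3 of the 4 lay above every wild-type early one. Every pair of groups overlapped. For the 2 early groups this rested on heterozygous early tumour 2 (7.16%), which had 4 Iglc1 reads and 8 Iglc2 reads.

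Counting Iglc3 changed this picture for the tumours rich in λ. Iglc3, the constant gene of λ3 light chains, had 4280.5 normalised reads in heterozygous late tumour 2, 2797 in tumour 4, 2213 in tumour 1 and 19.7 in tumour 3 of the same group. It had 1175, 1371, 33.7, 26.6 and 1243 in the wild-type late tumours. With Iglc3 added, the λ share was 54.0% in wild-type late tumour 1, 52.9% in heterozygous late tumour 1 and 48.1% in heterozygous late tumour 2, so λ mRNA exceeded κ mRNA in 2 tumours where it did not without Iglc3. The share was 39.8% in heterozygous early tumour 4 and 35.3% in wild-type late tumour 5, the median was 7.99%, and 8 tumours were above 10%.

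The levels of Iglc1 and Iglc3 went together over the 19 tumours (Spearman rho 0.93), whereas Iglc2 followed neither closely (rho 0.34 with Iglc1 and 0.32 with Iglc3). These are descriptions over 19 libraries that share a factor for depth. In heterozygous late tumour 2 Iglc2 had 30 reads and Iglc3 2972, a ratio of 0.0075 per kilobase. In heterozygous late tumour 1 they had 15 and 2540 reads, and in wild-type late tumour 1 they had 6 and 1274. Despite their 96.5% identity the 2 genes thus had unequal counts in these tumours.

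**Figure D3:**
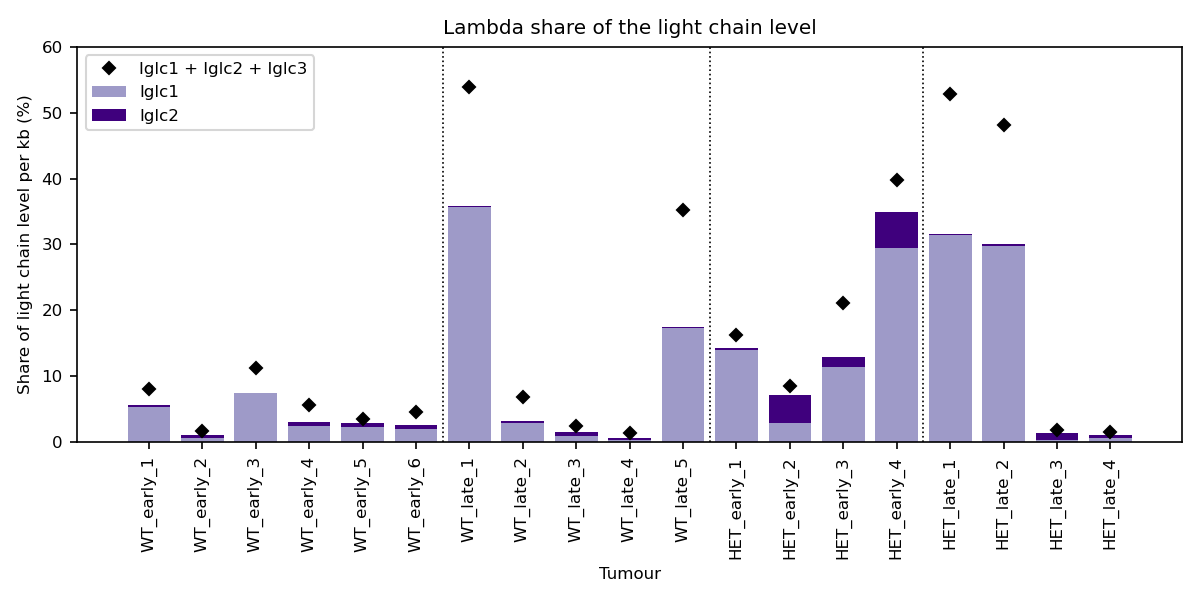
Share of λ constant region mRNA in light chain constant region mRNA per kilobase (y axis, percent) in each of the 19 tumours (x axis, by group), with bars for Iglc1 and Iglc2 and diamonds after Iglc3 was added. No bar exceeds 50%, whereas the diamonds of wild-type late tumour 1 and heterozygous late tumour 1 stand at 54.0% and 52.9%.

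The summed light chain level per kilobase, divided by the summed heavy chain level, had a median of 1.03. It was lowest in heterozygous early tumour 1 (0.109) and highest in wild-type late tumour 2 (3.98), and wild-type early tumour 5 was also low. Those 2 tumours with little light chain mRNA for their heavy chain mRNA had the highest levels of the surrogate light chain genes, whose products pair with the μ chain in pre-B cells. Igll1, the λ5 gene, had 3936 normalised reads in wild-type early tumour 5, 1072 in heterozygous early tumour 1 and at most 34.9 elsewhere. Vpreb1, which encodes the other component of the surrogate chain, had 2094 and 386 in these 2 tumours and at most 47.0 elsewhere.

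**Figure D4:**
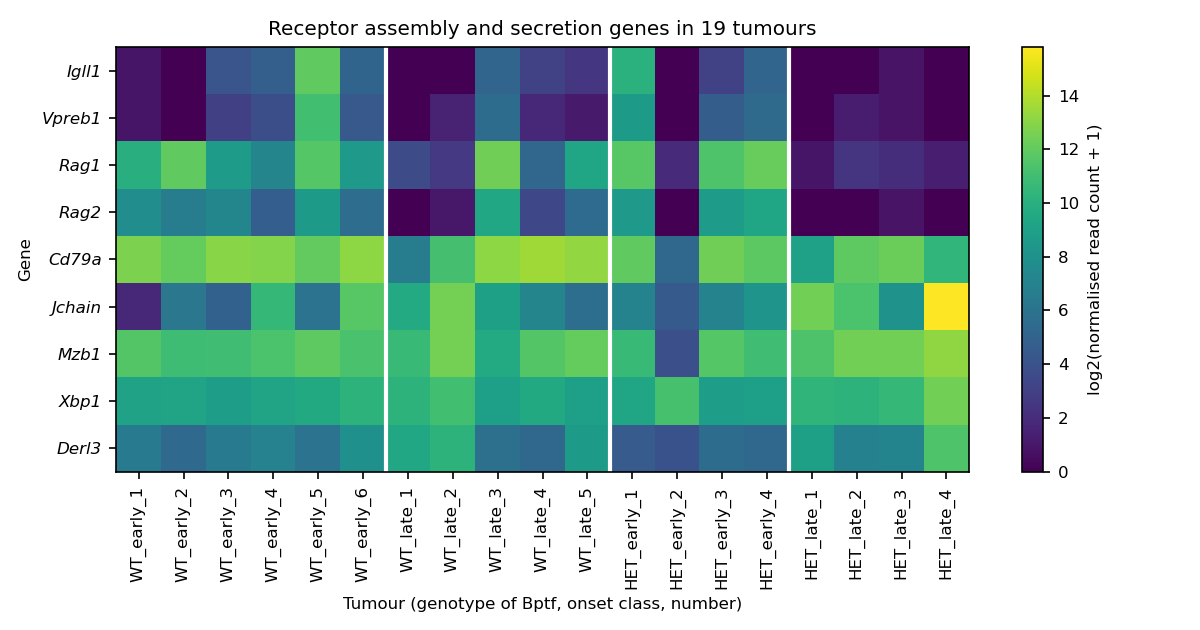
Level of surrogate light chain (Igll1, Vpreb1), recombinase (Rag1, Rag2), B cell receptor (Cd79a) and secretion genes (Jchain, Mzb1, Xbp1, Derl3) in the 19 tumours, as log2 of the normalised read count plus 1. Igll1 stands out in wild-type early tumour 5 (3936) and heterozygous early tumour 1 (1072), and Jchain in heterozygous late tumour 4 (57297).

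A B cell receptor gene also set some tumours apart. Cd79a, a signalling chain that the membrane immunoglobulin needs, had 103 normalised reads in wild-type late tumour 1, 38.5 in heterozygous early tumour 2, 517 in heterozygous late tumour 1 and 1352 in heterozygous late tumour 4, against 2257 to 11925 in the others. Cd79b, the gene of its partner chain, had 2737, 54.5, 2902 and 3860 in these tumours, against a median of 4896 over all tumours. Only heterozygous early tumour 2 was thus nearly without both. Ighm in wild-type late tumour 1 (16809) and heterozygous late tumour 1 (19290.2) was nevertheless within the range of tumours with abundant Cd79a. These 2 tumours also had the 2 highest λ shares after Iglc3 was added.

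Wild-type late tumour 1 and heterozygous late tumour 1 also had few heavy chain variable segment reads for their constant region reads. The other tumours named for low Cd79a did not. The table holds 67 Ighv, 75 Igkv and 3 Iglv segments, so segments outside it are not counted, and reads over a rearranged and mutated segment may not align. Ighv reads per 100 heavy chain constant reads had a median of 2.69. They were lowest in wild-type late tumour 1, with 14 Ighv reads and 0.074 per 100, followed by heterozygous late tumour 1 (0.109), wild-type early tumour 1 (0.132) and heterozygous late tumour 2 (0.22), and highest in heterozygous late tumour 4 (8.70). Igkv reads per 100 Igkc reads ranged from 4.83 in heterozygous late tumour 2 through a median of 25.8 to 72.7 in wild-type early tumour 5. Iglv reads per 100 reads of Iglc1, Iglc2 and Iglc3 ranged from 0.701, also in heterozygous late tumour 2, through a median of 22.6 to 58.7. Thus 7 tumours had less than 1 Ighv read per 100 heavy chain constant reads. Whether their constant region reads are germline transcripts, or carry segments that the table lacks, was not tested.

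Where variable segment reads were plentiful, 1 segment sometimes held most of them. Among the 13 tumours with at least 100 Ighv reads, 1 segment held over 50% in 5. The leading segment was Ighv6-6 in heterozygous late tumour 4 (91.5% of 104329 Ighv reads) and Ighv1-64 in heterozygous late tumour 3 (88.3%). It was Ighv12-3 in wild-type early tumour 2 (78.1%), Ighv1-64 in wild-type early tumour 3 (64.6%) and Ighv2-9-1 in wild-type early tumour 5 (55.6%). Among the 18 tumours with at least 100 Igkv reads, 1 segment held over 50% in 6, led by Igkv16-104 in heterozygous late tumour 4 (94.4% of 194804) and Igkv3-9 in wild-type late tumour 5 (79.2%). In wild-type late tumour 2, the tumour led by Igha, no segment passed 50%, with Ighv2-2 at 29.2% and Igkv1-117 at 47.5%. The switched mRNA of heterozygous late tumour 4 thus lay beside a single dominant pair of segments, and that of wild-type late tumour 2 did not.

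The first comparison asked how constant region expression differed between late and early tumours, averaged over genotype. Under limma, fitted on log2(normalised read count + 1) over 19927 genes, 87 genes (0.437%) passed an adjusted p of 0.05 and none of the 10 constant region genes was among them. Of the 10 genes, 8 had higher and 2 lower fitted means in late tumours, with a median difference of 1.44 on that log2 scale beside -0.08 over all genes tested. Igkc was higher by 2.10 ± 0.99 (SE, limma adjusted p = 0.258), the only one of the 10 with an unadjusted p under 0.05 (0.0474). Ighd differed by -1.86 ± 0.93 (limma adjusted p = 0.285) and Ighm by -0.22 ± 0.85 (limma adjusted p = 0.915). Ighg2b, Ighg2c and Igha had differences of 3.07 ± 1.58, 2.79 ± 1.48 and 2.47 ± 1.58 (limma adjusted p = 0.298, 0.315 and 0.405). These differences were within the spread between tumours. Without heterozygous late tumour 4 and wild-type late tumour 2, a choice made after seeing the data, the differences were 1.22 for Ighg2b, 1.38 for Ighg2c, 0.34 for Igha, 0.89 for Igkc and -0.76 for Ighd, so a large part of each rested on that pair of libraries. Without them the Ighm difference turned to 0.82 and that of Iglc2 from 0.91 to -0.25. Fitted on log2 weeks of onset in place of class, 8 of 19927 genes passed under limma and none of the 10. Of the 10, 5 had an unadjusted p under 0.05 in that fit.

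**Figure D5:**
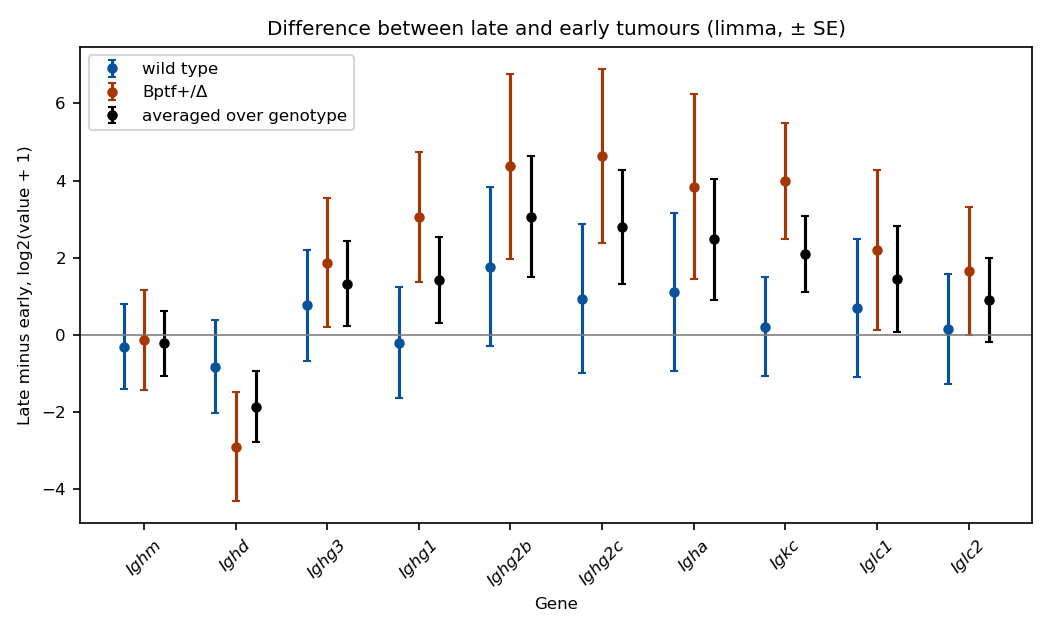
Late minus early difference of each of the 10 genes on the log2(normalised read count + 1) scale (limma estimate, bars ± SE) in wild-type tumours (6 early, 5 late), in heterozygous tumours (4 early, 4 late) and averaged over genotype. Igkc has 0.21 ± 1.29 in the wild type and 3.99 ± 1.51 in the heterozygotes, and none of the 10 genes passed the adjusted threshold in any of these comparisons.

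Onset was then compared within each genotype. In the wild type none of the 19927 genes (0%) passed under limma, with 966 at an unadjusted p under 0.05 and none of the 10 among these. Igkc differed by 0.21 ± 1.29 (limma adjusted p = 0.992) and Ighd by -0.82 ± 1.21 (limma adjusted p = 0.981). The direction of the Ighd value was not stable, with 0.42 by edgeR, 0.43 by DESeq2 and 0.32 without wild-type late tumour 2, and Igkc came to -0.48 without that tumour and -0.55 without wild-type early tumour 5. The authors' deposited table gave Ighd 0.45 (late over early, adjusted p = 0.871). In the heterozygous tumours again none of the genes (0%) passed under limma, with 3887 at an unadjusted p under 0.05. Igkc had a difference of 3.99 ± 1.51 (limma adjusted p = 0.167). It was the only one of the constant region genes under 0.05 unadjusted, at 0.0158. Ighg2c, Ighg2b, Igha and Ighg1 had differences of 4.65 ± 2.26, 4.37 ± 2.40, 3.84 ± 2.40 and 3.06 ± 1.69 (limma adjusted p = 0.264, 0.321, 0.382 and 0.325), and Ighd of -2.89 ± 1.42 (limma adjusted p = 0.268). Both ends of this comparison hold a library that stands apart, heterozygous late tumour 4 and heterozygous early tumour 2. Without the 3 libraries led by another gene, that is these 2 and wild-type early tumour 6, the Igkc difference was 1.41 and that of Ighd -3.14, while Ighg2c, Ighg2b and Igha came to 1.02, 0.91 and 1.09. Without heterozygous late tumour 4 alone, Ighd came to -1.84 and Igkc to 2.27. With the B cell marker score of each tumour as a covariate, Igkc was at 3.16 and Ighd at -3.47.

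Count-based calls in the heterozygotes differed between tools. DESeq2, run on the recovered reads, gave Ighd a difference of -3.23 with an adjusted p of 0.0349, the single call among the 6 of the 10 genes that received an adjusted p, in a comparison in which it called 11.3% of 15355 genes. The authors' deposited table called Ighg1, with a log2 fold change of 3.98 (late over early) and an adjusted p of 0.00831, the single call among 5 of the 10 genes with a p there, in a comparison with 4.32% of 14361 genes called. Ighd stood at -3.03 in the authors' deposited table (adjusted p = 0.118). In its other 4 comparisons the authors' deposited table called none of the 10 genes, with smallest adjusted p-values of 0.180 to 0.754. For genotype, all 10 had a p among early tumours and over all tumours, where 2.09% and 0.338% of genes were called. Among late tumours only 4 of the 10 had a p, with 0.109% of genes called. For onset in the wild type 9 had a p, with 1.94% of genes called. Ighg1 was also the single gene of the 10 whose heterozygous early and late values did not overlap, 1 of 10 beside 7.83% of all 19927 genes tested.

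The genotype comparison asked whether loss of 1 Bptf allele went with another level of these genes. Averaged over onset, none of the 19927 genes (0%) passed under limma, with 1988 at an unadjusted p under 0.05. Of the 10 genes, 7 had higher and 3 lower fitted means in heterozygous tumours, with a median difference of 0.87 beside 0.06 over all genes. Iglc2 was higher by 1.69 ± 1.09, Ighg2c by 1.65 ± 1.48 and Iglc1 by 1.04 ± 1.37 (limma adjusted p = 0.535, 0.637 and 0.747), all within the spread between tumours. Without heterozygous late tumour 4 the differences were 0.15 for Ighg2c, 0.85 for Iglc2 and 0.67 for Iglc1. Iglc1 moved by over 1.5 times for 7 other tumours as well, from 0.50 without wild-type late tumour 4 to 2.04 without heterozygous late tumour 3. Among early tumours 4 of the 10 genes were higher and 6 lower in heterozygotes (median -0.17, beside 0.09 over all genes), and among late tumours 8 were higher and 2 lower (median 2.05, beside 0.02), with no gene (0%) called in either under limma. The genes with an unadjusted p under 0.05 numbered 2293 among early and 1222 among late tumours.

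The difference between the genotypes in their late minus early change was tested as an interaction. No gene (0%) passed under limma, with 1382 at an unadjusted p under 0.05. The interaction was 3.78 ± 1.98 for Igkc, 3.26 ± 2.23 for Ighg1 and -2.07 ± 1.86 for Ighd (limma adjusted p = 0.743, 0.763 and 0.803). The unequal Igkc values of the 2 genotypes above were therefore not shown to differ. Without heterozygous late tumour 4 the Igkc interaction was 2.06 and that of Ighd -1.02, and without the 3 libraries led by another gene Igkc came to 0.86 and Ighg1 to 1.74. The Ighd interaction also came to -1.22 without wild-type late tumour 3, -3.21 without wild-type late tumour 2 and -3.38 without heterozygous early tumour 2.

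The other genes of the pathway were read in the same fits, from lists assembled by function, and none of their genes passed in any of the 7 comparisons under limma. The share of all genes called, 0.437% for onset and 0% elsewhere, applies to them too. Among 17 measured genes of immunoglobulin assembly and secretion, 14 were higher in late tumours, with a median difference of 0.79 beside -0.08 over all genes. The signal peptidase subunit Sec11c differed by 0.97, the degradation factor Derl3 by 2.56, the endoplasmic reticulum genes Creld2 by 1.48 and Hsp90b1 by 0.79 (limma adjusted p = 0.0630, 0.0745, 0.0912 and 0.131). Of 10 measured plasma cell markers, 9 were higher in late tumours (median 1.31), and 2 libraries, heterozygous late tumour 4 and wild-type late tumour 2, had the highest sums.

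Of 12 genes of receptor gene assembly, 8 were lower in late tumours (median -0.47). The recombinase genes Rag1 and Rag2 differed by -5.32 and -4.65 (limma adjusted p = 0.0687 and 0.0745), and the early B cell factor Ebf1 by -2.10 (limma adjusted p = 0.119). Rag1 was at most 11.1 in wild-type late tumours 1 and 2, heterozygous early tumour 2 and all 4 heterozygous late tumours, and at least 36.2 in the other 12. Among 7 other constant region and surrogate light chain genes, 4 were lower in late tumours (median -0.92), with Igll1 at -3.35, Vpreb1 at -2.99 and Iglc3 at 2.88 (limma adjusted p = 0.206, 0.213 and 0.255). Ighe, the ε constant gene, differed by 1.44 (limma adjusted p = 0.239) and did not exceed 16.6 normalised reads in any tumour.

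The enzymes of switching and hypermutation were nearly balanced for onset, with 13 of 20 higher in late tumours and a median of 0.13. Trp53bp1, which protects DNA ends at switch region breaks, differed by -0.54, the shieldin subunit Mad2l2 by 0.57 and Rif1, a partner of Trp53bp1, by -0.56 (limma adjusted p = 0.0902, 0.130 and 0.307). For genotype 17 of these 20 were lower in heterozygotes (median -0.36, beside 0.06 over all genes). Of 21 regulators of isotype choice, 11 were higher in late tumours (median 0.10), among them the transcription factor Batf at 1.14 and the receptor Tnfrsf13b at 1.37, whereas Smad3, which relays the TGF-β signal for IgA, was at -0.82 (limma adjusted p = 0.128, 0.130 and 0.105).

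Of 11 receptors that bind immunoglobulin, 8 were higher in late tumours (median 0.81), with the Fc receptor genes Fcgr4 at 2.41, Fcer1g at 0.90 and Fcgr3 at 0.81 (limma adjusted p = 0.0739, 0.157 and 0.216). These are genes of macrophages and related cells rather than of B cells. For genotype, all 10 B cell markers were lower in heterozygotes (median -0.80) and 10 of 12 receptor assembly genes were lower (median -0.87), while 13 of 17 assembly and secretion genes were higher (median 0.44). Markers of several other cell types were higher in heterozygotes, 11 of 12 for T cells (median 1.60), 9 of 9 measured for macrophages (0.52), 7 of 7 for stroma (0.54) and 7 of 7 for endothelium (0.48). Salivary markers were not, with 2 of 7 higher (-0.23). Endothelial markers were higher in 7 of 7 among early tumours (0.95) but 2 of 7 among late ones (-0.12). Stromal medians were 0.94 early and 0.23 late, T cell medians 1.04 and 1.96, and B cell medians -1.50 and -0.33. The early group holds heterozygous early tumour 2. For onset averaged over genotype, 12 of 12 T cell markers were higher in late tumours (0.98) and 5 of 9 macrophage markers (0.57). Of the stromal and endothelial markers, 6 of 7 (-0.85) and 6 of 7 (-0.89) were lower. None of these markers passed under limma. The part of tumour composition in the constant region values was not tested.

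Relations between constant region genes and their partners were computed over tumours for 5 pairs. Igha and Jchain went together over all 19 tumours on the log2 scale (Pearson r = 0.84, permutation p = 2e-05, adjusted 0.0001; Spearman rho = 0.81, permutation p = 7e-05, adjusted 0.00035), and r was 0.73 without heterozygous late tumour 4 and wild-type late tumour 2. Within the 10 early tumours r was 0.94 (permutation, adjusted p = 0.000575). Within the 9 late tumours r was 0.78 (exact permutation p = 0.01, adjusted 0.0226) and rho 0.60 (exact permutation p = 0.0968, adjusted 0.242), and r came to 0.29 without the same pair of libraries, so the relation among late tumours rested on them.

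Igkc and Iglc2 also went together over the 19 tumours (Pearson r = 0.74, permutation p = 0.00044, adjusted 0.0011; Spearman rho = 0.60, permutation p = 0.00757, adjusted 0.0189), with r at 0.57 without heterozygous late tumour 4 and heterozygous early tumour 2. Within the early tumours r was 0.50 (permutation p = 0.141, adjusted 0.177), and within the 9 late tumours 0.96 (exact permutation, adjusted p = 0.00258), with 0.71 after 2 libraries were left out. For Ighm with Ighd, Ighm with Igkc and Igkc with Rag1 the tumours fell into separate clusters, so no pooled coefficient is given.

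Among the constant region genes themselves, Ighg2b, Ighg2c and Ighg3 had close patterns over the 19 tumours. Spearman rho was 0.93 between Ighg2c and Ighg3, 0.89 between Ighg2b and Ighg3, 0.86 between Ighg2b and Ighg2c. Ighg1 was further off, with 0.72 to Ighg2b, 0.55 to Ighg2c and 0.53 to Ighg3, and Igha had 0.74 with Ighg2b. Ighg2b and Ighg2c share some sequence, as given above. Ighg3 shared 39 windows of 50 bases with Ighg2b and 0 with Ighg2c. All of these are descriptions over 19 libraries.

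The genes outside the immunoglobulin loci with the most similar pattern were found by Spearman rho over the 19 tumours. For Ighm they were Nudc (0.86), Anp32a (0.86), Pus1 (0.84), Snrnp35 (0.82) and Dnajc8 (0.81). For Ighd they were Ccdc125 (0.90), Prkd2 (0.88), Kif2a (0.87), Rbbp8 (0.86) and Snx2 (0.86), and no other immunoglobulin segment was among the 20 nearest genes of either. For Igha they were Cd247 (0.83), Jchain (0.81), Ap5b1 (0.78), Gcsam (0.76) and Gstt1 (0.75). Ighm and Ighd thus had neighbours of their own, and Igha had one of its known partners, Jchain, second in line.

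Tnfrsf4, a receptor of activated T cells, was the nearest such gene to Ighg2b (0.82), Ighg2c (0.81) and Ighg3 (0.80), and the second nearest to Iglc2 (0.75, after H2-Q6 at 0.76). The next for Ighg2b were Spint2 (0.79), Ak7 (0.76), Jchain (0.76) and Tnfsf8 (0.76), for Ighg2c Spint2 (0.74), Utp11 (0.74), Marco (0.73) and Gimap5 (0.72), and for Ighg3 Colec11 (0.78), Stab2 (0.76), Glycam1 (0.76) and Marco (0.76). Several of these mark T cells, macrophages or lymph node vessels and not B cells. The summed level of the 12 T cell markers ranged from 213 in wild-type early tumour 1 to 9182 in wild-type late tumour 1. The γ genes were low in both of these tumours, with Ighg2c at 6.96 in the former and 7.38 in the latter, and Ighg1 at 0 in both. The part of T cells in these patterns was not tested. Ighg1 was nearest to Spint2 (0.77), Bhlha15 (0.69), a secretory cell factor, Vcam1 (0.69), Tor2a (0.67) and Ak7 (0.67), all of which rest on its low counts.

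For the light chains, Igkc was nearest to Bloc1s4 (0.84), Adprhl2 (0.82), Tmem261 (0.82), Ten1 (0.81) and Mrps17 (0.80). Iglc1 was nearest to Rnase6 (0.87), Zbtb32 (0.87), Phf11b (0.86), Cyba (0.85) and Rubcnl (0.85). After Tnfrsf4, Iglc2 was followed by Ogg1 (0.74), Htra2 (0.74) and Cd3g (0.72). Iglc1 and Iglc2 thus shared none of their 5 nearest genes.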

How the data were processed

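Polyadenylated RNA of 19 tumours was sequenced on a Genome Analyzer IIx after TruSeq preparation, per the labels' protocols. The submitters' processing notes name TopHat2 (2.1.1), FastQC (0.11.5), Cuffdiff, Cuffnorm and Cufflinks (2.2.1) and the builds GRCm38 and mm10. The sources used here do not give the tool behind the table, its annotation or its strand setting. The values are a signal: the authors divided each library's gene counts by a single factor, and 100% of them were whole reads within 0.01 reads. Beside them the authors deposited, for 5 comparisons, log2 fold changes and adjusted p-values. The design had allowed for other units and was kept as written.

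limma 3.58.1 (R 4.3.3, with trend) was fitted to log2(value + 1) of the 19927 genes at 1 or more in at least 4 libraries, with 4 group means, no covariate and Benjamini-Hochberg adjustment at 0.05. This scale understates changes of low genes. edgeR 4.0.16 (quasi-likelihood) and DESeq2 1.42.0 on recovered reads, array weights, a B cell score, log2 of onset age, other pseudocounts and filters and omission of libraries were alternatives. Fits were tested on simulated data. Relations used SciPy 1.17.1 with 100000 resamples (n = 10 or more) or exact enumeration, two-sided. pandas 2.3.3, NumPy 2.4.6 and matplotlib 3.10.9 were also used. No library repeated another: over 171 pairs, chi-square per gene was 17.2 or more. Depth was 8297856 to 12497732 reads; intervals (95%) and the floor of 3 reads cover counting error only, since amplified reads are not independent molecules. Each library was a separate tumour.

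The genes and lists were chosen with earlier results of these data known. Named genes were the 10 genes, up to 4 per list with the smallest onset p (a few results on other genes are not reported here), and the 5 genes nearest each by Spearman rho at a mean of at least 20. Amplification cycles depended on a protocol version not given per library, so no within-batch values exist. RefSeq promoter tables were not used. Lengths and sequences came from GENCODE M21 transcripts.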

Additional observations from a re-analysis of the deposited data

Results flagged for a closer look

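In 7 of the 40 combinations of a gene and a group, the most extreme tumour stood far from the others by Dixon's criterion. The criterion was applied on the log2(normalised read count + 1) scale. Chance alone meets it in about 1 in 20 groups if values on that scale are normally distributed. Ighm was lowest, apart from its group, in 3 tumours: 4729 normalised reads in wild-type early tumour 5, 579.6 in heterozygous early tumour 2 and 219.8 in heterozygous late tumour 4. Heterozygous late tumour 4 was also set apart by a low Ighd (9.03) and a high Ighg2b (316767). Its Igha (752208) and Ighg2c (734797), though far above the rest of the group, did not meet the criterion on the log2 scale. In wild-type late tumour 2 Igkc stood apart at 40303. In heterozygous late tumour 3 Iglc1 stood apart at the low end, at 9.44.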

How the results depend on the processing

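Of 706 alternative values for 24 gene differences, 692 kept their direction and side of the threshold, 13 reversed and 1 newly passed it, the DESeq2 call of Ighd in heterozygotes, which made the count of constant region genes called there 1. The reversals concerned 4 differences, none of which had passed the threshold. Ighm for onset came to 0.05 without the 3 libraries led by another gene, 0.82 without the 2 richest in immunoglobulin reads (added after seeing the data) and -0.86 to 0.63 when 1 library at a time was left out. Iglc2 for onset came to -0.25 without those 2. In the wild type, Igkc came to -0.60 with array weights, -0.48 without the 2 and -0.55 to 0.56 without 1 library, and Ighd to 0.42 with edgeR, 0.43 with DESeq2, 0.32 without the 2 and -1.67 to 0.32 without 1 library. The cause was not tested. Genes called for onset over the whole table numbered 539 with edgeR, 1855 with DESeq2, 667 with array weights, 316 with the B cell score, 8 with log2 weeks, 7 without the 2 libraries and 0 without the 3, against 87. In heterozygous late tumour 4 the Ighg2c share was 40.7% without length, 59.0% by the longest and 40.6% by the shortest transcript (the last added after seeing the data), and the Igha share 41.7, 28.9 and 41.9%. Tumours over 50% λ numbered 2 with Iglc3. Ighm led 17 tumours under each length rule. No paired analysis was possible because each library is a separate tumour and the numbers carry no pairing. Depth limits Ighg1 and Ighg3 most, with at most 3 reads in 7 and 6 tumours.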
